A study of Saccharomyces cerevisiae with 25 samples.

Results

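The genes described here encode the enzymes, carriers and regulators of peroxisomal fatty acid beta-oxidation and the peroxins, the proteins that build and divide peroxisomes. They were chosen by their symbol in the platform annotation, either PEX followed by digits or 1 of 13 named genes (POX1, FOX2, POT1, ECI1, DCI1, SPS19, PXA1, PXA2, FAA2, TES1, ANT1, PIP2 and OAF1), on probe sets annotated to a single gene. This gave 40 of the 5656 genes measured, 13 beta-oxidation genes and 27 PEX genes. Transcript levels came from budding yeast (Saccharomyces cerevisiae) on 25 Affymetrix arrays, each hybridised with labelled target from total RNA of 1 sample. Exponentially growing cells in medium rich in glucose gave 14 arrays, from the wild type and from 7 strains labelled null for not2, not3, not4, not5, caf1, caf130 or ccr4. The wild type and the not2, not4, caf1, caf130 and ccr4 strains were also collected 30 min after the glucose had run out (11 arrays). The deleted genes encode subunits of the Ccr4-Not complex, which removes poly(A) tails from mRNA and has roles in transcription. Ccr4 and Caf1 are its deadenylases, Not4 is a ubiquitin ligase, and Not2, Not3, Not5 and Caf130 are further subunits. The sources used here give neither the strain background and mating type nor the number of independent clones of each deletion. Of the 14 groups, 11 held 2 independently prepared samples, while exponential not4, exponential not5 and caf1 after depletion had 1 array each. The study's design text says that the partner arrays of these were set aside as faulty.

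In yeast, fatty acids are broken down in peroxisomes and not in mitochondria. Fatty acids are activated to acyl-CoA, enter the peroxisome and are shortened in cycles by an oxidase, a hydratase-dehydrogenase and a thiolase. The enzymes are imported as folded proteins by receptors that dock at the membrane, release their cargo and are returned to the cytosol after ubiquitination. Glucose represses these genes, and the full induction on oleate requires the transcription factor pair of Oaf1 and Pip2, together with Adr1.

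Values are log2 signals as deposited, and differences are log2 differences ± SE from a limma fit to all 25 arrays. A gene is said to have risen or fallen when its p-value, adjusted by Benjamini-Hochberg over all 5656 genes of that comparison, was at or under 0.05. Array medians lay between 5.20 and 5.37 and lower quartiles between 3.51 and 3.85. The deleted genes read low in the arrays labelled for them, with 1 exception. CAF130 read 5.92, 6.60, 5.81 and 5.63 on the arrays that bear its name, which overlapped or lay above the wild-type readings of 5.60, 5.3, 5.68 and 5.76, so these 4 arrays are called arrays labelled caf130. The strains differed in other genes too. TRP1, a common selection marker, read 6.73 to 8.89 in the caf1 and ccr4 arrays and 2.09 to 3.14 in the strains not labelled caf1, ccr4 or caf130. In the arrays labelled caf130 it read 3.59 and 5.52 in exponential phase and 7.27 and 7.69 after depletion (2.92 ± 0.41, adjusted p = 7.6e-06), against a difference of 0.17 in wild type. The part of this difference in the depletion response of the arrays labelled caf130 was not tested. STE2, the alpha-factor receptor gene of a-type cells, read 4.23 to 5.22 in the not2 arrays and 6.97 to 9.63 in all others. MFA1, a further gene of a-type cells, read 6.15 to 8.22 in the not2 arrays and 10.49 to 13.15 in all others. The alpha-type genes STE3 and SAG1 were not higher in the not2 arrays. STE3 read 2.72 to 3.65 there against 2.96 to 4.69 elsewhere, and SAG1 5.83 to 7.5 against 6.4 to 10.59. Effects of these strain differences cannot be told apart from those of the deletions.

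Members differed in how far they stood above background. The signals of 26 members lay above the lower quartile of their array on every array. Those of DCI1 and PEX9 lay below it on all 25 arrays, so neither gives a level. PXA1 was below it on 22 arrays, PEX17 on 19, FAA2 and POX1 on 15 each, PXA2 and PEX28 on 14 each, and PEX32 on 24. For these genes a low reading is close to background, and a difference from it may be too small. Beta-oxidation genes varied more between groups than PEX genes. The range between the highest and the lowest group mean had a median of 2.90 over the 13 beta-oxidation genes, 1.76 over the 27 PEX genes and 2.01 over all genes. POT1 had the widest range of the 40 at 5.90, from 4.04 in exponential not4 to 9.94 in not2 after depletion, followed by PEX25 at 3.43 and FOX2 at 3.39. For 8 of the 13 beta-oxidation genes, POT1, FOX2, POX1, FAA2, ECI1, PXA1, PXA2 and SPS19, the highest of the 14 group means was that of not2 after depletion. The same held for 12 of the 27 PEX genes and for 789 of all 5656 genes.

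Glucose depletion of the wild type raised part of the beta-oxidation list, with the thiolase gene far ahead of the rest. Of 13 beta-oxidation genes 6 rose and 1 fell, and of 27 PEX genes 8 rose and 1 fell, against 39% of all genes tested that passed in either direction and 20.3% that rose. The medians were 0.44 for the beta-oxidation genes, 0.56 for the PEX genes and 0.02 for all genes. POT1, which encodes the ketoacyl-CoA thiolase of the last step of each cycle, read 4.47 and 4.12 in exponential phase and 8.09 and 7.83 after depletion, a rise of 3.67 ± 0.28 (12.7-fold, adjusted p = 1.35e-08). FOX2, the hydratase-dehydrogenase of the middle steps, read 6.40 and 6.36 before and 7.95 and 7.55 after (1.37 ± 0.33, adjusted p = 0.00238). In both genes the depletion arrays lay above the exponential arrays with no overlap. Each array averages a whole culture, so more expressing cells and more RNA per cell cannot be told apart. POX1, the acyl-CoA oxidase of the entry step, did not pass the test (-0.16 ± 0.45), reading 3.36 and 3.70 before and 3.21 and 3.52 after, below the lower quartile of each array.

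The auxiliary enzymes for unsaturated fatty acids did not pass in the wild type. The enoyl-CoA isomerase gene ECI1 read 5.01 and 5.3 before and 5.25 and 5.15 after depletion, and the dienoyl-CoA reductase gene SPS19 read 4.22 and 5.10 before and 4.93 and 4.63 after. The groups overlapped in both genes. Among the genes for activation and transport, TES1, an acyl-CoA thioesterase, rose from 6.55 and 6.92 to 8.89 and 8.60 (2.01 ± 0.42, adjusted p = 0.000783). FAA2, a peroxisomal acyl-CoA synthetase, rose from 2.90 and 2.98 to 4.43 and 4.40 (1.48 ± 0.23, adjusted p = 3.6e-05), from a level below the lower quartile. ANT1, which exchanges ATP across the peroxisomal membrane, went the other way, from 6.52 and 6.07 to 5.22 and 5.21 (-1.08 ± 0.36, adjusted p = 0.0227). That call was lost without wild-type exponential replicate 1 (adjusted p = 0.175) and without wild-type depletion replicate 1 or 2 (0.0876 and 0.0935). The acyl-CoA transporter gene PXA2 stood at 0.56 ± 0.22 (adjusted p = 0.0469), a call lost in 15 of 27 other settings with an adjusted p of up to 0.178. Its partner PXA1 did not pass (0.44). Of the regulators, PIP2 rose by 0.95 ± 0.27 (adjusted p = 0.00801), from 4.74 and 4.77 to 5.67 and 5.72, whereas OAF1 stayed between 5.80 and 6.23 in all 4 arrays (-0.04). The PIP2 call did not survive leaving out exponential replicate 1 (adjusted p = 0.052) or depletion replicate 2 (0.0529) of the wild type.

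**Figure D1:**
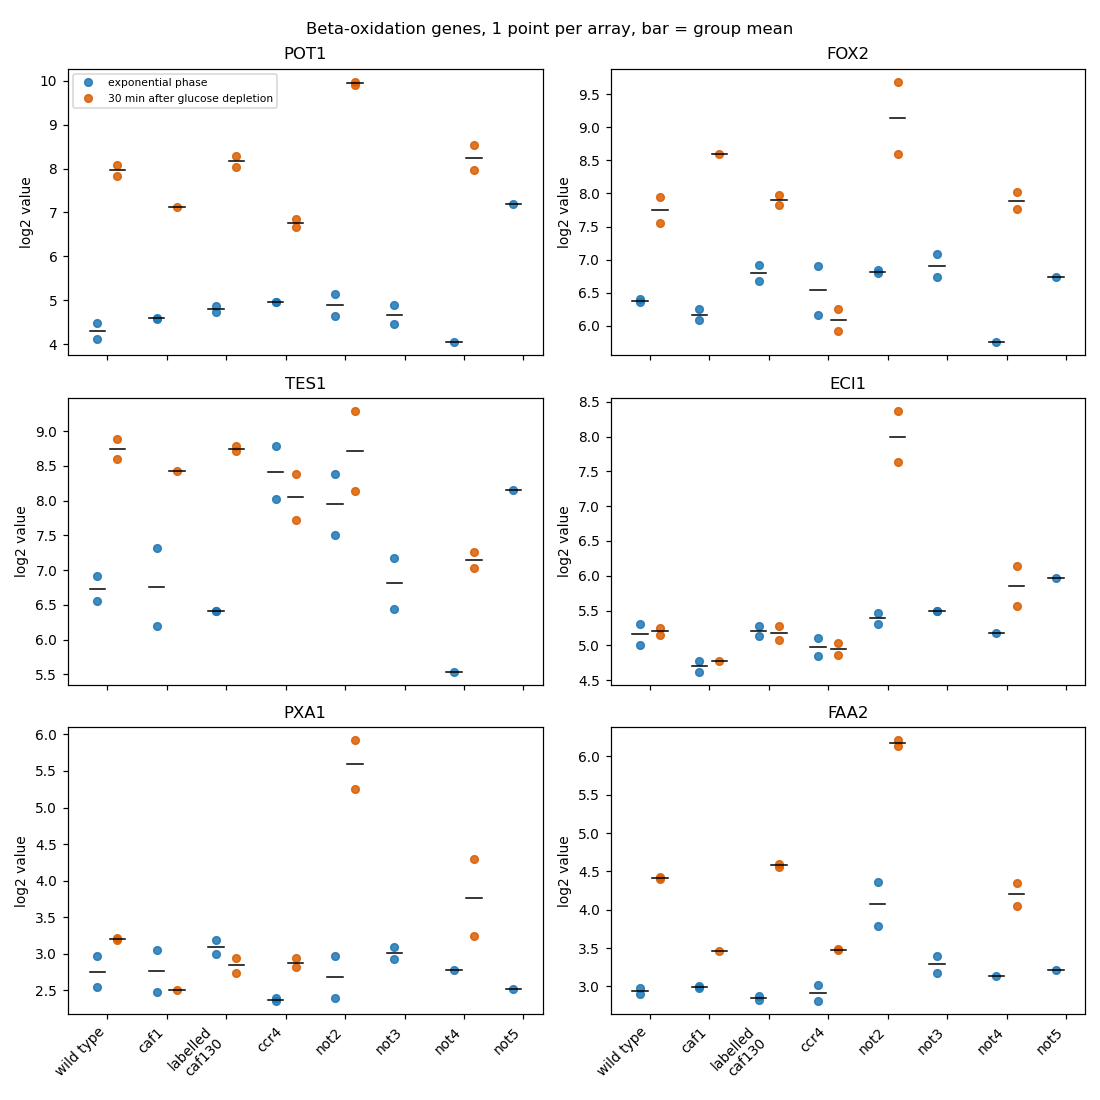
Log2 values of POT1, FOX2, TES1, ECI1, PXA1 and FAA2 on each array, by strain, in exponential phase (blue) and 30 min after glucose depletion (orange), with a bar at the group mean. POT1 is higher after depletion in each of the 6 strains collected in both conditions, whereas ECI1 and PXA1 stand at their highest in not2 after depletion.

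Among the wild type's PEX genes, PEX7, PEX4 and PEX29 rose and PEX25 fell in every setting tried. PEX7, the receptor for proteins with an N-terminal signal such as the thiolase, rose from 4.86 and 4.27 to 6.48 and 6.05 (1.70 ± 0.36, adjusted p = 0.000788). PEX4, the ubiquitin-conjugating enzyme that marks receptors for return to the cytosol, rose from 4.32 and 4.21 to 5.81 and 5.60 (1.44 ± 0.29, adjusted p = 0.000456). PEX29, an endoplasmic reticulum and peroxisome membrane protein that limits peroxisome number, rose from 5.78 and 5.88 to 7.37 and 7.15 (1.43 ± 0.27, adjusted p = 0.000322). PEX25, which acts in peroxisome proliferation, was the 1 PEX gene that fell, from 7.21 and 7.04 to 5.92 and 5.80 (-1.26 ± 0.32, adjusted p = 0.0036). The 2 conditions did not overlap in any of these 4 genes. The other 5 calls were smaller and depended on single arrays. The import factor gene PEX8 (0.98 ± 0.26) was not called without wild-type exponential replicate 2 (adjusted p = 0.0538), and PEX30, a reticulon-like relative of PEX29 (1.12 ± 0.36), not without exponential replicate 1 (0.124) or depletion replicate 1 (0.166). PEX3, the membrane anchor for the import of peroxisomal membrane proteins (1.10 ± 0.41), was lost without either exponential array (0.148 and 0.104) or depletion replicate 2 (0.263). The ubiquitin ligase gene PEX2 (0.89 ± 0.31) was lost without exponential replicate 1 (0.234) or depletion replicate 1 (0.228), and the co-receptor gene PEX21 (0.87 ± 0.31) without any 1 of the 4 wild-type arrays (0.0886 to 0.142). PEX2, PEX3 and PEX21 were also lost without the arrays labelled caf130 (0.052, 0.0526 and 0.0552).

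Each of the other 5 strains was then set against its own exponential arrays. The response of POT1 passed in every strain. It rose by 2.54 ± 0.35 in caf1 (adjusted p = 2.45e-05), 3.37 ± 0.28 in the arrays labelled caf130 (1.39e-08), 1.80 ± 0.28 in ccr4 (9.46e-05), 5.05 ± 0.28 in not2 (1.21e-10) and 4.21 ± 0.35 in not4 (2.35e-07). After depletion POT1 read 7.13 in caf1, 8.29 and 8.04 in the arrays labelled caf130, 6.84 and 6.67 in ccr4, 9.90 and 9.98 in not2, and 8.53 and 7.97 in not4. The not2 arrays were thus the highest and the ccr4 arrays the lowest, and neither overlapped the wild type at 8.09 and 7.83. PIP2 also rose in each strain, by 0.92 to 1.20, although its call was lost without 1 array or another in caf1, ccr4 and not2 (adjusted p between 0.0616 and 0.0992). The caf1 response and the exponential side of the not4 response rest on 1 array.

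In ccr4, 2 of 13 beta-oxidation genes rose (POT1 and PIP2) and 0 fell, and 11 of 27 PEX genes rose and 2 fell, against 37% of all genes. The medians there were 0.37 for beta-oxidation, 0.72 for PEX and 0.22 for all genes. In not4, 5 beta-oxidation genes rose and 0 fell, whereas 0 PEX genes rose and 4 fell. Of all genes there, 12.9% rose and 18.3% fell (31.1% in either direction), and the medians were 0.74, -0.05 and -0.18. In not2, 7 beta-oxidation genes rose and 1 fell, and 10 PEX genes rose and 3 fell, against 44.7%, with medians of 1.11, 0.58 and -0.08. In caf1, 8 beta-oxidation genes rose and 0 fell, and 7 PEX genes rose and 2 fell, against 30.4%, with medians of 1.13, 0.26 and 0.01. In the arrays labelled caf130, 6 beta-oxidation genes rose and 1 fell, and 7 PEX genes rose and 2 fell, against 50.1% in either direction and 23.2% that rose, with medians of 0.70, 0.29 and -0.09. The PEX shares of the wild type, caf1 and the arrays labelled caf130 (33.3% each) lay near or below the share of all genes. A list's count was not tested against the other list's.

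**Figure D2:**
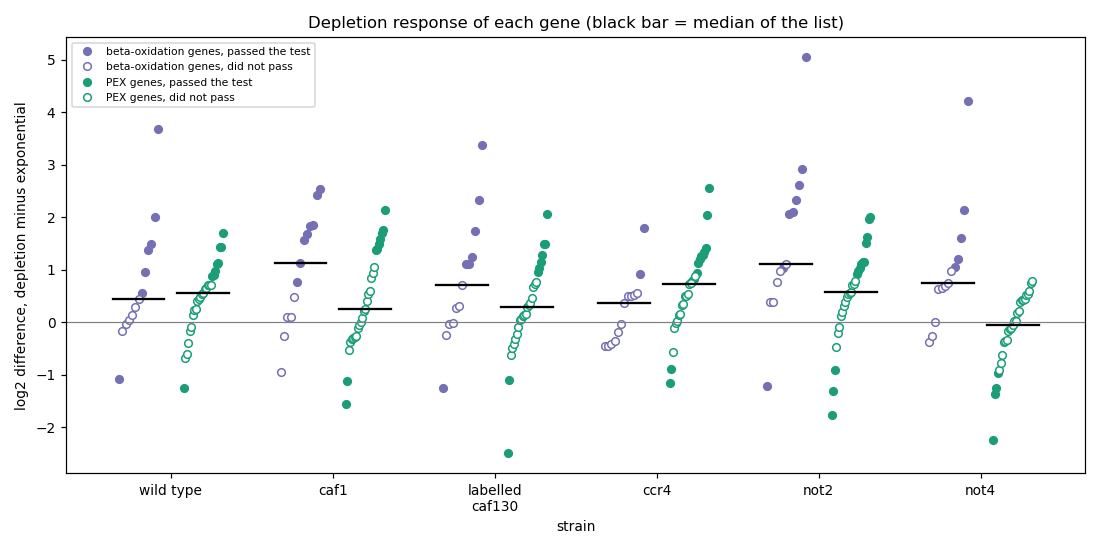
Log2 difference between depletion and exponential phase for each of the 13 beta-oxidation genes (purple) and 27 PEX genes (green) in the 6 strains, with filled points for genes that passed the test and a black bar at the list's median. The beta-oxidation points reach highest in not2 (POT1 at 5.05), and the PEX median is 0.72 in ccr4 and -0.05 in not4.

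Within the PEX list, PEX25 and PEX31 fell in several strains. PEX25 fell by 1.56 ± 0.39 in caf1 (adjusted p = 0.0053), by 2.50 ± 0.32 in the arrays labelled caf130 (2.26e-06), by 1.77 ± 0.32 in not2 (0.000145) and by 2.24 ± 0.39 in not4 (0.000339). In ccr4 it read 6.92 and 7.29 in exponential phase and 6.96 and 7.31 after depletion, a difference of 0.03 that did not pass. PEX31, a relative of PEX30, fell by 1.31 ± 0.30 in not2 (adjusted p = 0.00133). Its falls in caf1, ccr4 and the arrays labelled caf130 (-1.13, -0.89 and -1.11) were lost on leaving out a single array of those strains (adjusted p between 0.0527 and 0.174). PEX29 rose in caf1, ccr4, not2 and the arrays labelled caf130 (1.14 to 1.69) in every setting tried and stood at 0.42 in not4, where it did not pass. PEX8 rose in caf1, not2 and the arrays labelled caf130 (1.04 to 1.59) in every setting. Its rise in ccr4 (0.78) was lost without any 1 of the 4 ccr4 arrays (adjusted p between 0.0534 and 0.126).

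The rises in ccr4 included docking and membrane factors. PEX14, the docking protein for loaded receptors, read 3.95 and 4.67 before and 6.26 and 6.43 after depletion (2.04 ± 0.39, adjusted p = 0.000559), and PEX3 read 4.15 and 5.25 before and 7.10 and 7.41 after (2.56 ± 0.41, adjusted p = 0.000117). PEX17, a further docking subunit, rose by 1.26 ± 0.28 (adjusted p = 0.00175) and PEX5, the receptor for C-terminal signals, by 1.42 ± 0.31 (0.00169). PEX4 rose by 1.34 ± 0.29 (0.00133). The remaining rises, of PEX10, PEX11, PEX19 and PEX21 (0.83 to 1.27), and the fall of PEX6 (-1.15), each lost their call without ccr4 exponential replicate 1, with adjusted p between 0.0589 and 0.347. The 2 exponential ccr4 arrays differed widely in several PEX genes, as in PEX3 above and in PEX10, which read 3.68 and 4.91.

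In not2 the same docking gene PEX14 rose from 4.95 and 5.33 to 7.89 and 6.32 (1.96 ± 0.39, adjusted p = 0.000355). PEX30 rose by 2.01 ± 0.36 (0.000146) and the co-receptor gene PEX18 by 1.51 ± 0.31 (0.000495). Calls of PEX3, PEX28, PEX32 and PEX34 in not2 (1.63, 1.03, 0.98 and -0.92) were lost without not2 depletion replicate 1 (adjusted p between 0.0543 and 0.299), an array that read above its partner in each of PEX3, PEX14, PEX13, PEX19 and PEX32. PEX32 and PEX34 were also lost without not2 exponential replicate 1 (0.0534) and replicate 2 (0.22). The call of PEX10 (1.11) was lost without not2 exponential replicate 2 (0.0821), and that of PEX7 (0.92, adjusted p = 0.0423) in 11 of 28 settings (up to 0.288). In the single caf1 depletion array PEX7 read 7.47, PEX2 read 10.83 and PEX11 read 9.66, the first being 2.13 ± 0.44 above the exponential arrays (adjusted p = 0.00114), PEX2 1.76 ± 0.39 (0.00185) and PEX11 1.39 ± 0.32 (0.00243). PEX18 rose there by 1.49 ± 0.38 (0.00576), and the rise of PEX4 (1.38) was lost without caf1 exponential replicate 1 (0.0621). In the arrays labelled caf130, PEX30 rose by 2.06 ± 0.36 (9.76e-05) and PEX4 by 1.14 ± 0.29 (0.00254), whereas the rises of PEX2, PEX3 and PEX7 (0.95, 1.49 and 1.28) were each lost without caf130 exponential replicate 1 (0.0579, 0.0869 and 0.0503), and that of PEX2 without any 1 of the other 3 arrays of that strain too (0.0652 to 0.0818). In not4, PEX13, PEX17 and PEX21 fell by 1.37, 0.97 and 1.26, and each call was lost without 1 of the 2 depletion arrays, replicate 1 for PEX13 (0.058) and replicate 2 for PEX17 (0.0998) and PEX21 (0.06).

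Among the other beta-oxidation genes, FOX2 rose by 2.42 ± 0.40 in caf1 (adjusted p = 0.000176), 2.32 ± 0.33 in not2 (1.12e-05) and 2.14 ± 0.40 in not4 (0.000631). In the arrays labelled caf130 it stood at 1.10 ± 0.33 (0.00889), a call lost without caf130 exponential replicate 2 (0.0666) or depletion replicate 1 (0.0619). In ccr4 it read 6.91 and 6.17 before and 6.25 and 5.92 after depletion (-0.45) and did not pass. TES1 rose in the arrays labelled caf130 (2.33 ± 0.42, adjusted p = 0.00013) and read 8.78 and 8.03 before and 8.38 and 7.72 after depletion in ccr4 (-0.35, not passing). Its rises in caf1 (1.67) and not4 (1.60) were lost without caf1 exponential replicate 2 (0.164) and not4 depletion replicate 2 (0.0683). FAA2 rose in the arrays labelled caf130 (1.73 ± 0.23), not2 (2.10 ± 0.23) and not4 (1.06 ± 0.28), and stood at 0.47 in caf1 and 0.56 in ccr4. PXA2 rose in the arrays labelled caf130 (1.24 ± 0.22) and in not2 (2.06 ± 0.22). It also passed in caf1 (0.76 ± 0.27, adjusted p = 0.0362), a call lost in 5 of 27 settings, among them without caf1 exponential replicate 1 (0.0547) or replicate 2 (0.12). In caf1 OAF1 rose by 1.57 ± 0.38 (adjusted p = 0.00387). The calls of SPS19 (1.86) and POX1 (1.84) in caf1 were lost without caf1 exponential replicate 1, where the log2 differences were 1.7 and 1.8. The POX1 probe sets disagreed in this response, at 1.84, 0.41, 0.37 and 1.37. The POX1 call was also lost with the mean of these sets, at a log2 difference of 1.0. ANT1 fell in not2 (-1.22 ± 0.36, adjusted p = 0.00919) and in the arrays labelled caf130 (-1.26 ± 0.36), the latter not without caf130 exponential replicate 2 (0.117).

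After depletion the not2 strain had higher levels of most of the beta-oxidation pathway than the wild type. Of 13 beta-oxidation genes 8 were higher and 0 lower, and of 27 PEX genes 6 were higher and 1 lower, against 28% of all genes. The medians were 1.76, 0.59 and 0.01. The beta-oxidation median was 0.98 without not2 depletion replicate 2. ECI1 read 8.37 and 7.63 in not2 and 5.25 and 5.15 in wild type (2.80 ± 0.29, 6.97-fold, adjusted p = 1.28e-06). PXA1 read 5.92 and 5.26 against 3.21 and 3.19 (2.40 ± 0.31, adjusted p = 1.52e-05), and PXA2 read 5.57 and 5.73 against 3.84 and 3.91 (1.78 ± 0.22, adjusted p = 8.53e-06). Both subunits of the acyl-CoA transporter were therefore higher on each not2 array than on each wild-type array. FAA2 read 6.14 and 6.21 against 4.43 and 4.40 (1.76 ± 0.23, adjusted p = 1.65e-05), SPS19 read 6.23 and 7.37 against 4.93 and 4.63 (2.02 ± 0.43, adjusted p = 0.00173), and POT1 was higher by 1.98 ± 0.28 (adjusted p = 3.95e-05). These 6 calls held in every setting tried.

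POX1 and FOX2 were higher in not2 as well, but leaned on 1 array. POX1 read 4.35 and 6.15 against 3.21 and 3.52 (1.88 ± 0.45, adjusted p = 0.00393), and its call was lost without not2 depletion replicate 2 (0.0967). All 4 POX1 probe sets stood higher there, at 1.88, 0.85, 1.83 and 1.75 in a fit over all single-gene probe sets (adjusted p between 0.000432 and 0.0227). FOX2 read 8.59 and 9.69 against 7.95 and 7.55 (1.39 ± 0.33, adjusted p = 0.00383), a call lost without not2 depletion replicate 2 (0.0675) or wild-type depletion replicate 2 (0.0605). The regulators did not pass. PIP2 read 5.55 and 5.74 in not2 and 5.67 and 5.72 in wild type (-0.05 ± 0.27), and OAF1 read 6.35 and 7.23 against 6.23 and 5.80 (0.77). TES1 (-0.03) and ANT1 (-0.70) did not pass either.

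PEX genes differed in both directions between not2 and wild type after depletion, against 14% of all genes higher and 14% lower. PEX22, the membrane anchor of the Pex4 enzyme, read 8.47 and 8.12 against 6.39 and 6.42 (1.89 ± 0.35, adjusted p = 0.000483), and PEX18 read 5.74 and 5.57 against 4.31 and 3.74 (1.62 ± 0.31, adjusted p = 0.000706). Both held in every setting. PEX5 (1.27 ± 0.31), PEX14 (1.58 ± 0.39), PEX27 (1.4 ± 0.39) and PEX6, an ATPase that extracts receptors (0.91 ± 0.31), were higher and PEX4 was lower (-0.93 ± 0.29). Each of these 5 was lost without 1 array or more. PEX5 was lost without wild-type depletion replicate 2 (adjusted p = 0.0769), PEX14 without not2 depletion replicate 1 (0.105) or wild-type depletion replicate 1 (0.063), PEX27 without either wild-type depletion array (0.0535 and 0.0713), PEX6 without not2 depletion replicate 2 (0.391) or either wild-type array (0.0872 and 0.166), and PEX4 without not2 depletion replicate 1 (0.0875) or either wild-type array (0.128 and 0.061).

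The difference between the not2 and the wild-type responses to depletion was tested as an interaction. Of 13 beta-oxidation genes 4 had a larger rise in not2 and 0 a smaller one, and 0 of 27 PEX genes differed (5 had an unadjusted p under 0.05 in limma), against 6.93% of all genes. The excess was 2.57 ± 0.41 for ECI1 (adjusted p = 0.000991), 2.47 ± 0.44 for PXA1 (0.00181), 1.5 ± 0.31 for PXA2 (0.00595) and 1.38 ± 0.40 for POT1 (0.0422). The first 3 held in every setting, and the POT1 call was lost in 14 of 28 settings (adjusted p up to 0.149). Glucose-repressed genes that served as a check of the condition went different ways in the same arrays. After depletion the gluconeogenic gene PCK1 read 10.46 and 11.42 in not2 and 9.33 and 9.18 in wild type, whereas FBP1 read 5.65 and 5.63 against 7.32 and 6.89, and their part in the result was not tested.

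The ccr4 strain had lower levels of several beta-oxidation genes than the wild type after depletion. Of 13 beta-oxidation genes 0 were higher and 4 lower, and of 27 PEX genes 4 were higher and 1 lower. Of all genes, 15.2% were higher and 11.8% lower (27.1% in either direction), and the medians were -0.32, 0.13 and 0.06. FOX2 read 6.25 and 5.92 in ccr4 and 7.95 and 7.55 in wild type (-1.66 ± 0.33, adjusted p = 0.00128), a call that held in every setting. POT1 was lower as well (-1.21 ± 0.28, adjusted p = 0.00409), lost without ccr4 depletion replicate 2 (0.0579) or wild-type depletion replicate 1 (0.0575). FAA2 read 3.49 and 3.47 against 4.43 and 4.40 (-0.94 ± 0.23, adjusted p = 0.00579), lost without ccr4 depletion replicate 2 (0.0572). PXA2 (-0.64 ± 0.22, adjusted p = 0.036) was lost in 7 of 28 settings, among them without each of the 2 ccr4 (0.157 and 0.149) and 2 wild-type (0.122 and 0.157) depletion arrays.

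In the same ccr4 arrays the proliferation factor gene PEX11 read 9.79 and 9.98 against 8.68 and 8.63 (1.23 ± 0.26, adjusted p = 0.00191), and the ATPase gene PEX6 read 5.56 and 5.41 against 7.02 and 6.85 (-1.45 ± 0.31, adjusted p = 0.002). Both held in every setting, and neither overlapped the wild type. PEX25 was higher (1.28 ± 0.32, adjusted p = 0.00682), not without ccr4 depletion replicate 2 (0.0919) or wild-type depletion replicate 2 (0.0545). PEX17 (1 ± 0.28) was lost without either ccr4 array (0.0668 and 0.0847) or wild-type depletion replicate 1 (0.102), and PEX19, the chaperone of peroxisomal membrane proteins (1.05 ± 0.38), was lost in 13 of 28 settings (up to 0.234).

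The depletion response of ccr4 differed from that of the wild type in 3 beta-oxidation genes, all smaller, and in 2 PEX genes, against 19.4% of all genes. The difference was -1.87 ± 0.40 for POT1 (adjusted p = 0.0037), which held in every setting. It was -1.83 ± 0.47 for FOX2 (0.0113) and -2.36 ± 0.60 for TES1 (0.0109). TES1 was already higher in ccr4 than in wild type in exponential phase, and it did not pass between them after depletion. FOX2 was lost without ccr4 exponential replicate 1 (0.0735), ccr4 depletion replicate 2 (0.0628) or wild-type depletion replicate 1 (0.0579), and TES1 without the same 3 arrays (0.0691, 0.0672 and 0.0501) or wild-type exponential replicate 1 (0.0511). PEX19 (1.65 ± 0.53, adjusted p = 0.0346) and PEX2 (-1.45 ± 0.45, adjusted p = 0.0287) were lost in 8 of 27 and 6 of 28 settings (up to 0.157 and 0.148). Glucose-repressed genes also stood low in the ccr4 depletion arrays. The glyoxylate cycle gene ICL1 read 5.62 and 5.16 in ccr4 and 9.50 and 9.21 in wild type, and PCK1 read 6.88 and 6.65 against 9.33 and 9.18, whereas the glucose-induced carrier gene HXT1 was near wild type at 5.79 and 5.91 against 5.57 and 5.63. Their part in the beta-oxidation result was not tested.

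**Figure D3:**
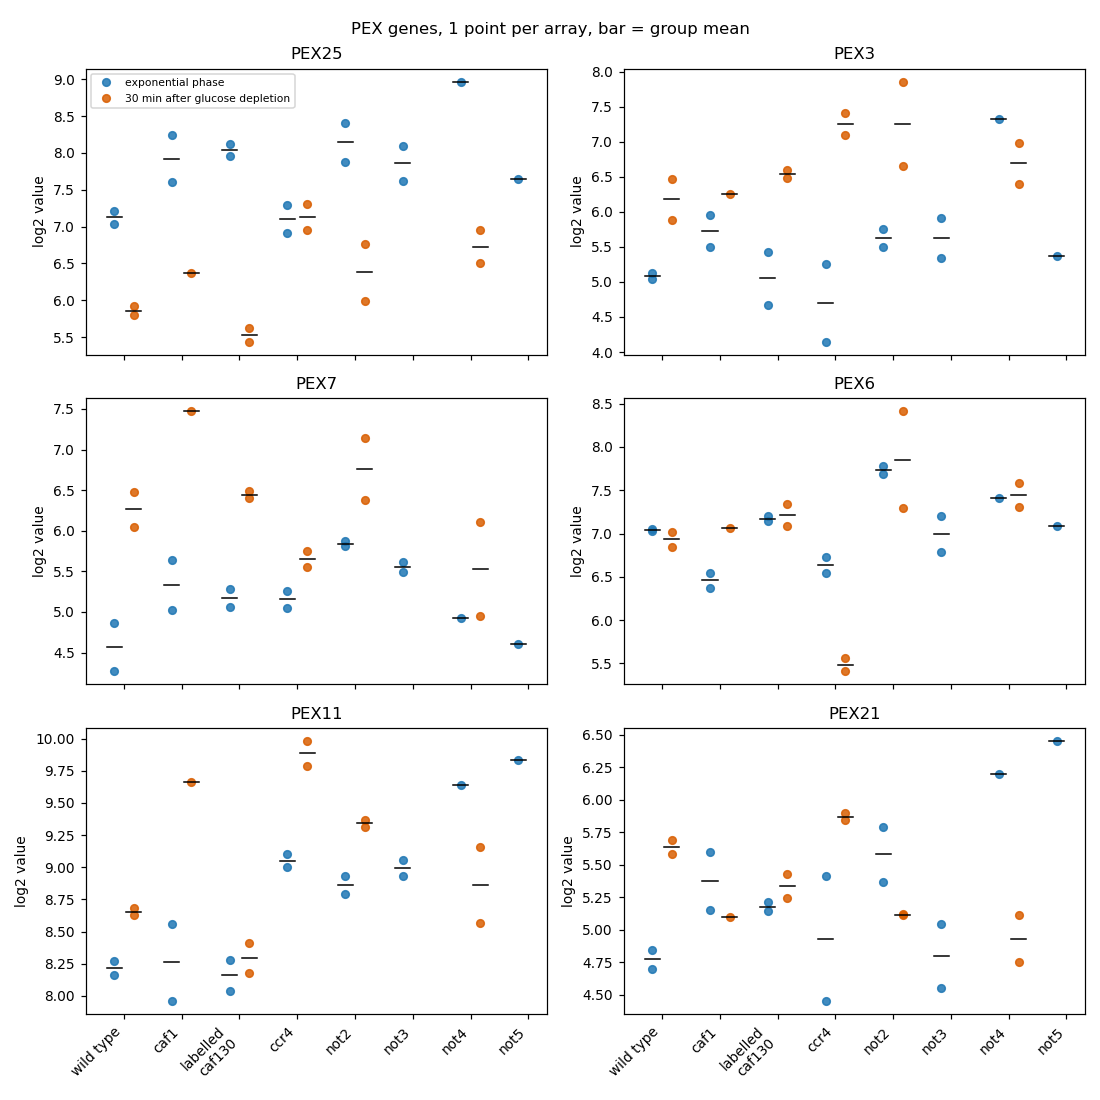
Log2 values of PEX25, PEX3, PEX7, PEX6, PEX11 and PEX21 on each array, by strain, in exponential phase (blue) and 30 min after glucose depletion (orange), with a bar at the group mean. PEX25 is lower after depletion in each strain but ccr4, and PEX6 is lowest in the ccr4 depletion arrays at 5.56 and 5.41.

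Of the other 3 strains after depletion, caf1 rests on a single array. There 3 of 13 beta-oxidation genes and 2 of 27 PEX genes passed, against 13.4% of all genes, 8.03% higher and 5.36% lower. POX1 (1.68) and SPS19 (1.61) were higher and FAA2 was lower (-0.96), and PEX11 (1) and PEX18 (1.20) were higher. Adjusted p-values lay between 0.0308 and 0.0488, and each call was lost in several settings, with 0 of the 5 kept when the spread came from depletion arrays alone. The POX1 probe sets disagreed there, at 1.68, 0.34, 0.61 and 1.06. In not4, 1 beta-oxidation gene and 0 PEX genes passed (3 PEX genes had an unadjusted p under 0.05 in limma), against 12.1% of all genes. TES1 read 7.03 and 7.26 in not4 and 8.89 and 8.60 in wild type (-1.60 ± 0.42, adjusted p = 0.0177), lost without not4 depletion replicate 1 (0.104) or either wild-type depletion array (0.132 and 0.0759). The 2 not4 depletion arrays stood apart from each other in several members, reading 4.29 and 3.24 in PXA1, 5.23 and 3.75 in PEX27 and 6.11 and 4.95 in PEX7. They also differed in ICL1 (8.32 and 6.78) and in the alcohol dehydrogenase gene ADH2 (6.34 and 8.47). The responses of 0 caf1 members and 1 not4 member differed from the wild type's, against 2.37% and 4.17% of all genes (8 caf1 members had an unadjusted p under 0.05 in limma). The not4 gene was PEX21, whose response was lower (-2.13 ± 0.49, adjusted p = 0.0191), a call lost without any 1 of the 4 wild-type arrays (0.0536 to 0.0731). PEX21 was already higher than wild type on the single exponential not4 array, and between not4 and wild type after depletion it did not pass. In the arrays labelled caf130, 0 of the 40 members passed against wild type after depletion and 0 in the difference of responses (1 and 3 had an unadjusted p under 0.05 in limma), against 0.0354% of all genes in each.

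In exponential phase few members passed in any strain. The not2 strain had the most, with 2 beta-oxidation genes and 5 PEX genes higher and 0 lower. Of all genes, 22.6% passed there, 15.5% higher and 7.07% lower. FAA2 read 4.36 and 3.79 against 2.90 and 2.98 (1.13 ± 0.23, adjusted p = 0.00203), a call that held in every setting. PEX5 read 4.94 and 4.93 against 3.74 and 3.33 (1.4 ± 0.31, adjusted p = 0.00397), lost without wild-type exponential replicate 2 (0.0502). PEX7 (1.28), PEX25 (1.03) and PEX13, a docking subunit (1.10), were lost without not2 exponential replicate 2 (0.0942, 0.222 and 0.34) and without 1 or both wild-type exponential arrays (0.0576 to 0.189). PEX27 (1.11, adjusted p = 0.0457) and TES1 (1.21, adjusted p = 0.0455) were lost in 16 of 28 and 14 of 29 settings (up to 0.258 and 0.301).

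In the single exponential not4 array 0 of 13 beta-oxidation genes passed (2 had an unadjusted p under 0.05 in limma), and 6 of 27 PEX genes were higher and 0 lower, against 8.22% of all genes in either direction and 4.79% higher. PEX25 read 8.97 against 7.21 and 7.04 (1.84 ± 0.39, adjusted p = 0.00749), a call that held in every setting. No setting left out this single not4 array. PEX3 read 7.32 against 5.04 and 5.13 (2.23 ± 0.50, adjusted p = 0.0107) and PEX11 read 9.64 against 8.27 and 8.16 (1.43 ± 0.32, adjusted p = 0.00935). These were lost without wild-type exponential replicate 1 (0.0547) and replicate 2 (0.0532). PEX21 (1.42, adjusted p = 0.0277), PEX13 (1.4, adjusted p = 0.0453) and PEX29 (1.12, adjusted p = 0.0441) were lost in 4, 19 and 14 of 29 settings (up to 0.112, 0.177 and 0.145).

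The single exponential not5 array had 2 beta-oxidation and 2 PEX genes higher and 0 lower. Of all genes, 5.23% passed in either direction, 3.71% higher and 1.52% lower. POT1 read 7.20 there, between 4.04 and 5.13 in the other 13 exponential arrays, and was higher than wild type by 2.91 ± 0.35 (7.50-fold, adjusted p = 4.19e-05). SPS19 read 6.72 against 4.22 and 5.10 (2.07 ± 0.53, adjusted p = 0.0264), PEX11 read 9.83 (1.61 ± 0.32, adjusted p = 0.00402) and PEX21 read 6.45 against 4.84 and 4.70 (1.68 ± 0.38, adjusted p = 0.0122). The POT1 and PEX11 calls held in every setting, none of which left out the single not5 array. SPS19 was lost without wild-type exponential replicate 1 (0.229) or the arrays labelled caf130 (0.0549), and PEX21 without either wild-type array (0.057 and 0.0543). Glucose-repressed genes were high on the same array. ADH2 read 10.29 against 6.40 and 6.41 in wild type, FBP1 7.61 against 3.26 and 4.02, ICL1 7.09 against 4.84 and 4.94, and PCK1 8.93 against 5.10 and 5.48. HXT1 read 8 against 9.34 and 7.97, and the part of these genes' shift in the POT1 result was not tested.

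The remaining exponential strains had 1 called member or none. In ccr4 the call was TES1 (1.67 ± 0.42, adjusted p = 0.0218), which read 8.78 and 8.03 against 6.55 and 6.92, against 6.77% of all genes, 4.1% higher and 2.67% lower. It was lost without ccr4 exponential replicate 1 (0.258) or either wild-type array (0.164 and 0.0718). In caf1 the call was PEX27 (1.59 ± 0.39, adjusted p = 0.0233), against 4.46% of all genes, lost without caf1 exponential replicate 2 (0.488) or either wild-type array (0.142 and 0.123). In not3 and in the arrays labelled caf130, 0 of 40 members passed (5 and 2 had an unadjusted p under 0.05 in limma), against 3.06% and 0.672% of all genes. All strains were compared with the same wild-type arrays, so the deletion comparisons within a condition are not independent of each other.

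**Figure D4:**
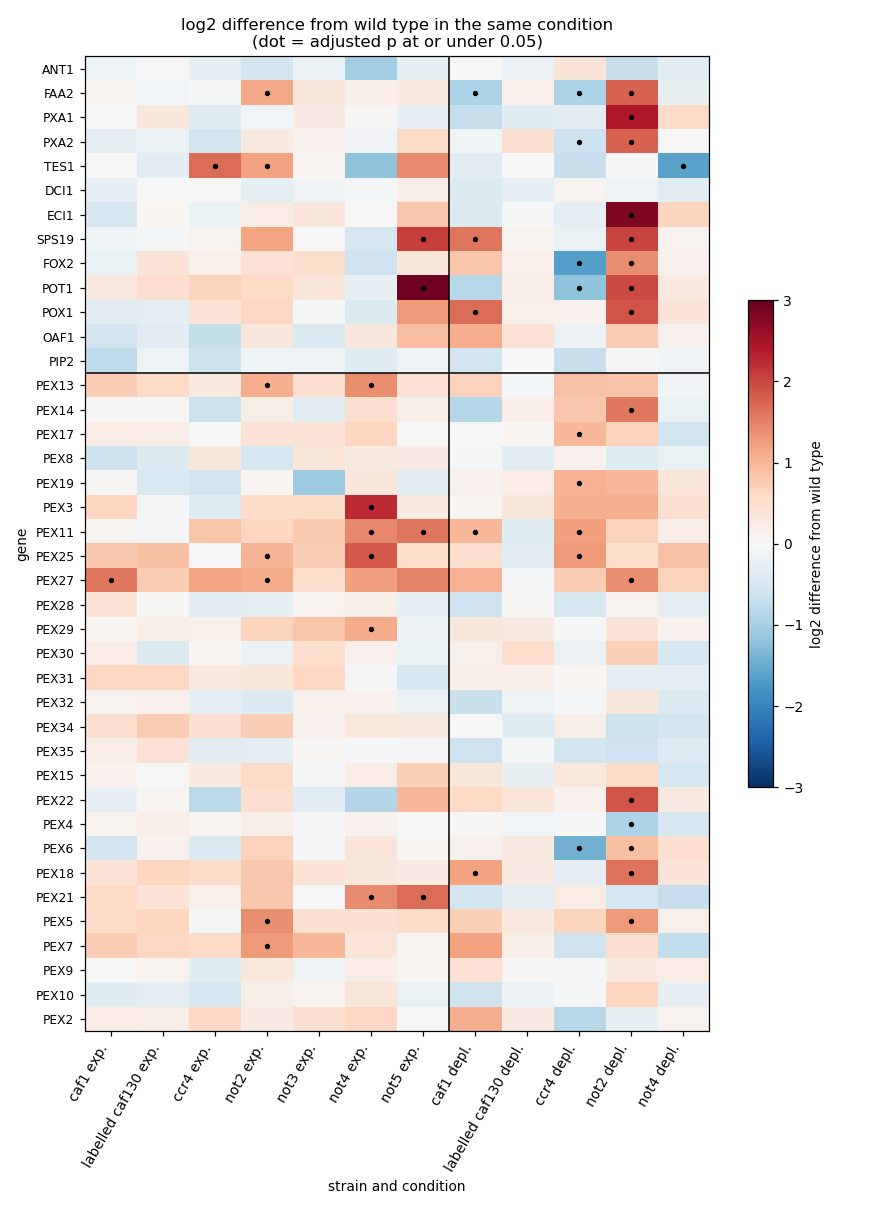
Log2 difference of each of the 40 genes from wild type in the same condition, by strain, with exponential phase on the left and glucose depletion on the right of the vertical line, beta-oxidation genes above and PEX genes below the horizontal line, and a dot where the test was passed. The column of not2 after depletion holds 8 dots among the 13 beta-oxidation genes, and that of ccr4 after depletion holds 4, all lower.

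The ccr4 and not2 strains were also compared with each other. The wild-type arrays do not enter these differences but were part of the fit that gave their spread. After depletion 9 of 13 beta-oxidation genes were lower in ccr4 than in not2 and 1 was higher, and 4 of 27 PEX genes were lower and 2 higher, against 44.5% of all genes. The medians were -2.22 for beta-oxidation, -0.31 for PEX and 0.05 for all genes, and -1.65 and 0.21 for the lists on leaving out not2 depletion replicate 2 and replicate 1. The differences were -3.18 ± 0.28 for POT1 (9.08-fold, adjusted p = 6.08e-08), -3.06 ± 0.29 for ECI1 (1.43e-07), -3.05 ± 0.33 for FOX2 (7.31e-07), -2.72 ± 0.31 for PXA1 (1.3e-06), -2.70 ± 0.23 for FAA2 (4.61e-08), -2.42 ± 0.22 for PXA2 (8.37e-08) and -2.22 ± 0.43 for SPS19 (0.000349). These 7 and the PEX genes PEX6 (-2.36 ± 0.31), PEX18 (-1.87 ± 0.31) and PEX22 (-1.76 ± 0.35) held in every setting. POX1 (-1.76), OAF1 (-0.96), ANT1 (1.08) and PEX7 (-1.11) were lost without not2 depletion replicate 2 (limma adjusted p = 0.123, 0.224, 0.101 and 0.17). OAF1, ANT1 and PEX7 were also lost without either ccr4 depletion array (0.0519 to 0.109). PEX4 (0.89) and PEX34, a further proliferation factor (0.82), were lost without not2 depletion replicate 1 (0.0771 and 0.0752) or ccr4 depletion replicate 2 (0.111 and 0.173).

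In exponential phase the same comparison gave 3 beta-oxidation genes lower in ccr4, and 5 PEX genes lower and 1 higher, against 35.6% of all genes. FAA2 read 2.81 and 3.02 in ccr4 and 4.36 and 3.79 in not2 (-1.16 ± 0.23, adjusted p = 0.000797), and PEX5 read 3.58 and 3.39 against 4.94 and 4.93 (-1.45 ± 0.31, adjusted p = 0.00154), both held in every setting. OAF1 (-1.06), PXA2 (-0.84), PEX22 (-1.29), PEX25 (-1.04), PEX6 (-1.10) and PEX8 (0.86) were each lost without 1 array of the 2 strains or more (adjusted p between 0.0632 and 0.173). PEX9 passed as well (-0.67, adjusted p = 0.0399), with both strains below the lower quartile. Its call was lost in 8 of 28 settings, and it stood at -0.39 without ccr4 exponential replicate 2 (adjusted p = 0.332) and at -0.44 without not2 exponential replicate 1 (0.268). PEX15, the membrane anchor of the Pex6 ATPase, PEX35 and DCI1 passed in none of the 25 comparisons.

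Other genes of the peroxisome were counted beside the members. Of 13 further matrix enzymes, 9 rose and 0 fell in the wild type after depletion, against 20.3% of all genes that rose. They were led by the malate synthase gene MLS1 (3.71 ± 0.45, adjusted p = 1.91e-06), the catalase gene CTA1 (3.45 ± 0.42, 2.49e-06), the carnitine acetyltransferase gene CAT2 (3.16 ± 0.36, 1.05e-06) and the citrate synthase gene CIT2 (1.94 ± 0.35, 0.00018). In not2 after depletion, where 8 beta-oxidation genes were higher than in wild type, 1 of these 13 was higher (CAT2, 1.15 ± 0.36, adjusted p = 0.0213) and 6 were lower, against 14% of all genes in each direction. The lower ones were led by the lipase gene LPX1 (-1.81 ± 0.57, adjusted p = 0.0229), MLS1 (-1.45 ± 0.45, 0.02) and PCS60, an acyl-CoA synthetase homologue (-1.30 ± 0.36, 0.0105), and of these calls each was lost in 2 to 4 settings. In ccr4 after depletion 0 were higher and 5 lower, against 11.8% of all genes lower. Among the 5 were CIT2 (-2.68 ± 0.35, adjusted p = 3.53e-05), MLS1 (-2.67 ± 0.45, 0.000314), CTA1 (-2.46 ± 0.42, 0.000402) and CAT2 (-2.20 ± 0.36, 0.000262), which held in every setting. In not4 4 were lower, against 6.22% of all genes, and in caf1 2 were lower, against 5.36%.

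Of 4 further regulators, ADR1, the activator of glucose-repressed peroxisomal genes, rose in the wild type (3.01 ± 0.39, adjusted p = 4.16e-06). After depletion it was lower in ccr4 than in wild type (-1.28 ± 0.39, adjusted p = 0.02), a call lost in 4 settings. Of 4 acyl-CoA synthetases outside the peroxisome, FAA1 rose (1.23 ± 0.30, adjusted p = 0.00265) and FAA4 fell (-2.07 ± 0.34, 5.7e-05) in the wild type. Of 8 genes for fission, inheritance and turnover, 3 rose and 1 fell there, against 20.3% and 18.7% of all genes. The rises were led by FIS1, the membrane anchor of the fission machinery (2.42 ± 0.34, adjusted p = 1.07e-05), and ATG36, the receptor for peroxisome degradation (2.28 ± 0.41, 0.000172). After depletion 3 of these 8 were higher in not2 than in wild type, against 14% of all genes, with the fission adaptor gene MDV1 at 2.74 ± 0.36 (adjusted p = 1.52e-05).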

How the data were processed

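Total RNA was extracted with acid phenol, and biotin-labelled target was hybridised following Affymetrix's procedure, per the labels' protocols. The authors' deposited table holds log2 values, with a column for each array. The sources used here name no software, background correction or normalization, and the log base was inferred from the values (1.36 to 13.94, 0 missing). Values were used as deposited. Of 9275 probe sets, 6504 were annotated to 1 gene and were used, while 328 with several genes and 2443 without a gene were not. All 5656 genes were matched to R64 symbols by Entrez number. For genes with several probe sets (POX1 among the members, with 4) the set with the highest mean was taken, without a filter on dim sets.

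Groups came from the sample titles. A limma 3.58.1 model of 14 group means (R 4.3.3, lmFit, eBayes with trend) gave 25 comparisons. It had 11 residual degrees of freedom and 9.03 prior ones, and groups of 1 array took their spread from the others. The study's design text states independent preparations, and the p-values cover variation at that level alone. The number of arrays limits the precision. The script was tested on simulated data. Members, gene lists and tests were chosen with earlier results of these data known. The 13 beta-oxidation genes and each PEX gene called in any comparison were named, and of 4 further lists (matrix enzymes, acyl-CoA synthetases outside the peroxisome, oleate regulators, fission and inheritance) the called genes with the largest change. The strain marker genes TRP1, STE2, MFA1, STE3 and SAG1 were added with their values known. Alternatives were quantile normalization, a filter on genes under the lower quartile of gene means, the mean of a gene's probe sets, a replicate block, no intensity trend, the spread of 1 condition, the fit without the arrays labelled caf130, and leaving out each of 22 arrays. Calls are said to hold in every setting when they passed in each of these that included the gene and both groups. The single arrays of exponential not4, exponential not5 and caf1 after depletion were never left out. Calls that rest on them were therefore not tested without them. Tables were made with pandas 2.3.3 and numpy 2.4.6 under Python 3.11.15, and figures with matplotlib 3.10.9.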

Additional observations from a re-analysis of the deposited data

Results flagged for a closer look

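The responses of 10 gene and strain pairs to glucose depletion differed from the wild-type response in the interaction test. That is 5% of 200 tests of members, against 6.57% of the same tests over all genes. By strain it is 5 of 40 members against 19.4% of all genes in ccr4, 4 of 40 against 6.93% in not2 and 1 of 40 against 4.17% in not4. In not2 the response exceeded the wild type's by 2.57 in ECI1, 2.47 in PXA1, 1.5 in PXA2 and 1.38 in POT1 (log2). In ccr4 it was below the wild type's in POT1 (-1.87), FOX2 (-1.83), TES1 (-2.36) and PEX2 (-1.45) and above it in PEX19 (1.65). In not4 it was below the wild type's in PEX21 (-2.13). The exponential ccr4 arrays already stood above wild type in TES1, and the single exponential not4 array did so in PEX21. Of the 10, those of ECI1, PXA1 and PXA2 in not2 and of POT1 in ccr4 held in every setting tried. No group held more than 2 arrays, so single arrays could not be tested as outliers.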

How the results depend on the processing

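Of 178 calls of members, 85 held in every setting tried, 93 were lost on leaving out at least 1 array, and 0 changed direction. Of the counts of called members under the other 7 settings, 176 stayed within 1.5 times and 19 did not. Quantile normalization gave 4 beta-oxidation genes instead of 2 for the ccr4 depletion response, 3 members instead of 6 for exponential not4 and 3 instead of 5 for caf1 after depletion against wild type. Leaving out genes with a mean under 4.81 keeps 27 members, 8 beta-oxidation genes and 19 PEX genes. Among calls of the members kept, 1 was lost, so the lower counts under this filter come mainly from the members left out. The filter gave 5 beta-oxidation genes instead of 8 for the not2 response. It gave 0 members instead of 1 for exponential caf1, 4 instead of 7 for exponential not2, and, after depletion against wild type, 1 instead of 5 for caf1, 5 instead of 9 for ccr4 and 9 instead of 15 for not2. It also gave 5 instead of 9 for exponential ccr4 against not2. Without the arrays labelled caf130 the counts were 0 instead of 1 for exponential caf1, 4 instead of 7 for not2 and 3 instead of 6 for not4, 0 instead of 5 for caf1 after depletion, and 3 instead of 5 for the difference of the ccr4 response. With the spread of 1 condition they were 2 instead of 1 for exponential ccr4, 1 instead of 0 for exponential not3 and 0 instead of 5 for caf1 after depletion. Beta-oxidation medians fell in size with the dim genes left out, to 1.08 for not2 after depletion against wild type and -1.59 for ccr4 against not2.

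Same-numbered arrays did not deviate together as a whole (median correlation -0.02, from -0.55 to 0.47 over 55 pairs of groups, 14 above 0.1). No pairing common to all groups was seen, and pairing within some of the groups was not tested. With the replicate block, 9 calls were lost, and caf1 after depletion had 2 called members instead of 5.

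Leaving out 1 array at a time, called beta-oxidation genes in the depletion response numbered 4 to 7 in wild type, 5 to 8 in caf1 and 1 to 3 in ccr4, and called PEX genes in ccr4 7 to 14. Called members against wild type in exponential phase numbered 0 to 1 in caf1, 0 to 3 in ccr4, 2 to 11 in not2, 0 to 2 in not3, 2 to 7 in not4 and 2 to 5 in not5. After depletion they numbered 0 to 8 in caf1, 3 to 14 in ccr4 and 0 to 5 in not4. Differences of responses numbered 0 to 2 in caf1, 1 to 11 in ccr4, 3 to 7 in not2 and 0 to 3 in not4. Exponential ccr4 against not2 gave 5 to 14. The cause of these shifts was not tested. Signals below the lower quartile, as for PXA1, POX1 and FAA2, limit what low readings can show.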
